A study of Mus musculus with 18 samples.

Results

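Contacts across the HoxD region were compared between cultured limb bud mesenchyme and embryonic stem cells that had been differentiated with retinoic acid. The comparison uses 6 of the 18 libraries of the series, 4 from limb cells and 2 from day 3 (D3) cells. The limb libraries come from 2 lines, A2 and P2, with 2 libraries each. Both are mesenchymal lines derived from distal forelimb buds of E10.5 Immortomouse embryos, A2 from the anterior and P2 from the posterior side. They were grown at 33 °C with 20 ng/ml γ-interferon, conditions that keep the temperature-sensitive, interferon-inducible T antigen of this mouse active. D3 cells are OS25 ES cells, per the labels kept on mitomycin C-treated embryonic fibroblasts, that were plated at low density without LIF and analysed after 3 days, the last 2 of them with retinoic acid at 5e-06 M. All 6 libraries were made from formaldehyde-fixed cells. Each limb position is represented by 1 line. The labels do not say whether the libraries of a group came from separate cultures, so the spread within groups may be technical. The limma p-values below rest on that spread over all 18 libraries of the series, most of which are not compared here. The cell identities rest on the labels, because contact maps hold no expression values.

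In 5C, fixed chromatin is cut with a restriction enzyme, here EcoRI, and ligated, and each junction between 2 fragments is copied by a forward and a reverse primer and counted by sequencing. HoxD is a cluster of homeobox genes whose order along the chromosome follows the order of their expression along the body axis and, later, the limb. The cluster lies between large flanking landscapes that hold its enhancers. The flank on the side of Hoxd13 (5′) is known for digit enhancers and the flank on the side of Hoxd1 (3′) for enhancers of the early, proximal limb. The border between the corresponding topological domains has been placed inside the cluster, and genes near it can make contacts in either direction.

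The 2 primer designs differed, with 133 fragments for D3 cells and 203 for limb cells, and only the 131 fragments present in both were used. They span chromosome 2 from 74241352 to 74907778 in mm9 (666 kb) and comprise 40 fragments in the 5′ flank, 22 in the cluster from Evx2 to Hoxd1 and 69 in the 3′ flank. Forward and reverse primers can join 4290 pairs of them, of which 4126 have midpoints at least 10 kb apart. Each library was rescaled so that these 4126 pairs sum to 1000, and contact frequency below means this scaled value. The Hoxd13, Hoxd11, Hoxd9, Hoxd1 and Evx2 genes are each covered by 1 shared fragment, Hoxd8 by 2, Hoxd12 and Hoxd4 by 3 and Hoxd3 by 8. Fragments of Hoxd4 are also counted for Hoxd3, since the annotated genes overlap. No shared fragment covers Hoxd10, so the 5′ Hoxd genes are here Hoxd13 to Hoxd11 (5 fragments), the middle part Hoxd9 and Hoxd8 (4) and the 3′ Hoxd genes Hoxd4 to Hoxd1 (7).

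Fragment borders at which the split between both sides was strongest in one or more of the libraries are printed here, because the position of the boundary turns on them. The first lies at chr2:74516222-74516281 (mm9, plus strand) between Hoxd12 and Hoxd11, outside any annotated gene. The second lies at chr2:74537299-74537358 (plus strand) in the coding sequence of Hoxd9, and together with a site in an untranslated part of Hoxd11 it bounds the gap left by Hoxd10. Capitals mark the EcoRI site.
Border between Hoxd12 and Hoxd11: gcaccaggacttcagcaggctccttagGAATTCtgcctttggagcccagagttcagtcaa
Border in Hoxd9: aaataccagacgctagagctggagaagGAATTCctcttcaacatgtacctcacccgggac

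CTCF is the zinc finger protein whose sites often mark domain borders, so a core of its motif (CCA, AG and GGC, each separated from the next by 2 free bases) was searched on both strands of the whole span. Matches occurred 34 times over the span, some of them outside the shared fragments. Of the 131 shared fragments, 18 held a match (13.7%), as did 3 of the 22 in the cluster (13.6%). Per 100 kb there were 2.47 matches in the cluster, 7.03 in the 5′ flank and 4.62 in the 3′ flank, against 5.10 over the span. The 3 cluster matches are shown with 9 bases on each side and the core in capitals, each read 5′ to 3′ on its own strand, at chr2:74500163-74500192 (plus, between Evx2 and Hoxd13), chr2:74511226-74511255 (minus, between Hoxd13 and Hoxd12) and chr2:74553969-74553998 (plus, inside the annotated span of Hoxd3). The border between Hoxd12 and Hoxd11 falls in the interval from 4.87 to 47.6 kb after the start of Hoxd13, in which these letters were not found. A match is a stretch of letters and no evidence of binding.
Between Evx2 and Hoxd13: cctctggttCCAAAAGCTGGCcaagtacga
Between Hoxd13 and Hoxd12: gccaaacgcCCAGGAGATGGCgagcgtgct
In Hoxd3: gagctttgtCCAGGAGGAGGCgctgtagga

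The libraries held 478818 to 2096681 reads, and 235151 to 897614 in the pairs compared. Pairs without a read made up 36.0% and 47.2% of the 4126 in D3 cells, and 2.47% and 17.3% in A2 and 1.48% and 9.02% in P2 cells, with little change when all libraries were thinned to 289046 reads (36.3% and 47.8% in D3, at most 17.96% in limb cells). The highest 1% of pairs held 22.4% and 18.6% of the signal in D3 and 6.40% to 10.6% in limb cells. In the other 12 libraries of the series, all ES cells with the smaller design, 23.7% to 63.2% of pairs were empty. Limb and D3 libraries thus differ in cell type, culture and primer design at once, and these cannot be told apart in any difference given here.

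A single fragment pair stood out in D3 cells. It joins mHoxD_85, a fragment that covers parts of Hoxd3 and Hoxd4 and ends in an untranslated part of Hoxd4, with mHoxD_163 in the 3′ flank, 287 kb away. Its frequency was 108.6 and 49.7 in D3 replicates 1 and 2, and 3.47 and 10.2 in A2 and 2.79 and 5.55 in P2 cells. The same pair ranked first in all of the other 12 ES libraries too, with 18.8 to 111.3. It was also among the highest pairs of limb cells, with rank 1 in both A2 libraries and ranks 5 and 3 in P2 replicates 1 and 2. Values without it are given beside some of the results below. The last bases of mHoxD_163 at chr2:74849790-74849819 (mm9, plus strand, in no annotated exon) are shown with the EcoRI site in capitals.
End of mHoxD_163: cagaggaagacagctagcttcctaGAATTC

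**Figure D1:**
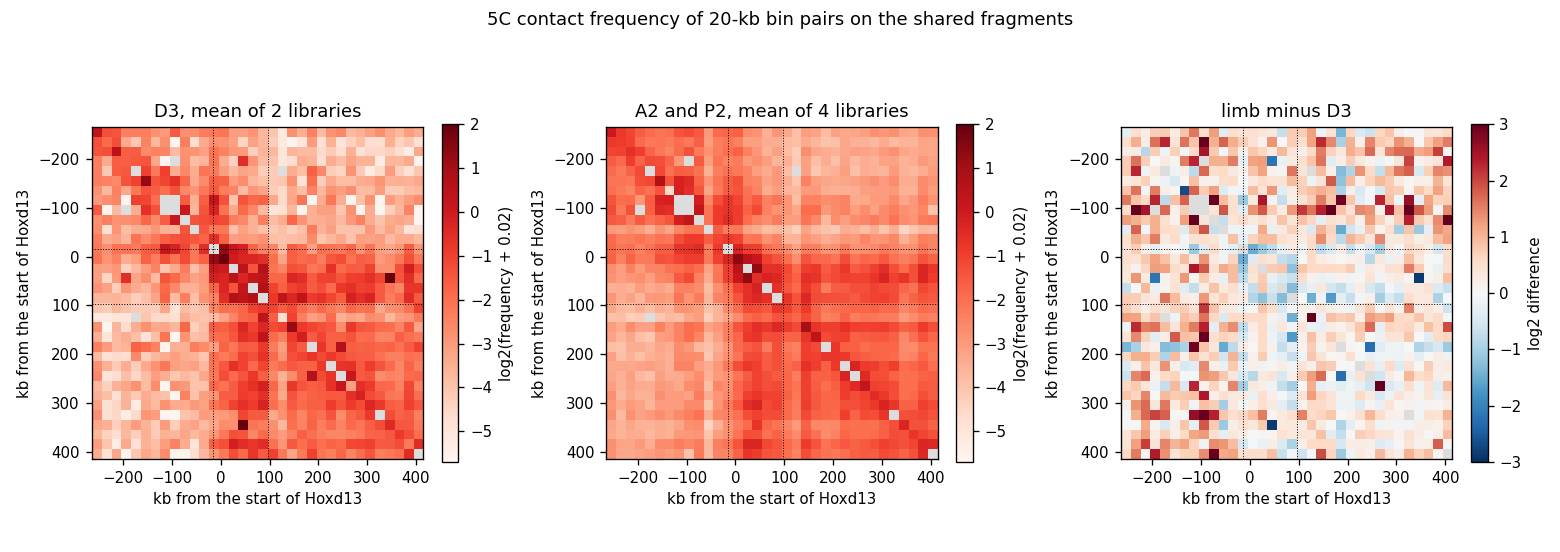
Mean contact frequency of 20-kb bin pairs on the shared fragments in D3 cells (left) and limb cells (middle), as log2 of the frequency plus 0.02, and their log2 difference from the fit (right). Both axes give kb from the start of Hoxd13, dotted lines enclose Evx2 to Hoxd1, and grey squares were not tested. In both maps contacts are denser inside each flank than between the flanks, the D3 map has scattered empty squares, and the bin pair with mHoxD_85 and mHoxD_163 is the dark square of the left map far from the diagonal.

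Contacts inside each flank exceeded those between the flanks in limb and in D3 cells. At distances of 120 to 250 kb, pairs between the flanks had mean frequencies of 0.0627 and 0.0549 in D3, 0.0882 and 0.0766 in A2 and 0.0764 and 0.0636 in P2 cells. Pairs inside the 3′ flank at these distances had 0.192 and 0.174 in D3, 0.235 and 0.236 in A2 and 0.244 and 0.211 in P2 cells. Pairs inside the 5′ flank had 0.103 and 0.116 in D3, 0.217 and 0.195 in A2 and 0.246 and 0.167 in P2 cells.

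The flanks differed in how D3 and limb cells compared. Relative to pairs between the flanks, pairs inside the 3′ flank were 3.07 and 3.17 times as frequent in D3 and 2.66 to 3.32 times in limb cells, which overlapped. Pairs inside the 5′ flank were 1.65 and 2.11 times as frequent in D3 and 2.46 to 3.22 times in limb cells, without overlap. These ratios were not tested.

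Flank separation, with both flanks together, is the log2 ratio of pairs inside a flank to pairs between flanks averaged over 10-kb distance classes. It was 1.92 and 1.16 in D3 replicates 1 and 2, 1.34 and 1.56 in A2 and 1.65 and 1.71 in P2. The limb values lay between those of the D3 replicates. The difference of limb minus D3 was 0.024 (95% interval -0.41 to 0.46, limma, adjusted p = 0.905 over 18 readouts), which as a ratio spans 0.752-fold to 1.38-fold. In undifferentiated OS25 cells, the starting state of D3 cells, the ratio was 1.05 and 0.86.

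At distances of 40 to 200 kb, the strongest split of contacts into 2 sides lay within the cluster in all 6 libraries, between Hoxd12 and Hoxd9. For each border between neighbouring fragments, boundary strength was taken as the log2 ratio of pairs on the same side to pairs across the border at distances of 40 to 200 kb. In both D3 replicates, in A2 replicate 2 and in P2 replicate 2, the strength was highest at the border between Hoxd12 and Hoxd11 printed above, 9.88 kb from the start of Hoxd13. In A2 replicate 1 and P2 replicate 1 it was highest at the next border, in the gap around Hoxd10 (24.5 kb).

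The mean position was 9.88 kb in D3 (n = 2, with no spread) and 17.2 ± 8.41 kb (SD, n = 4) in limb cells, a difference of 7.29 kb with an exact permutation p of 0.467 (two-sided, 15 arrangements). With 4 libraries against 2 the smallest p possible is 0.0667, so this test could not pass 0.05. The maximum was broad: strengths within 0.1 of it reached from 9.07 to 24.5 kb in D3 replicate 1, from -0.84 to 9.88 kb in D3 replicate 2 and from 7.60 to 32.1 kb in A2 replicate 1. When only distances of 40 to 120 kb were used, the highest split moved to the 5′ side in all 6 libraries, to -23.3 kb in both D3 replicates and to -0.84, -8.06, -0.84 and -42.7 kb in A2 replicates 1 and 2 and P2 replicates 1 and 2. The position thus depended on the distance range used.

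At a split fixed midway between Hoxd10 and Hoxd9, the strength was 0.73 and 0.71 in D3, 0.81 and 0.61 in A2 and 1.03 and 0.75 in P2. Limb and D3 libraries overlapped, and the difference was 0.081 (95% interval -0.40 to 0.56, limma, adjusted p = 0.764). Undifferentiated OS25 cells had values below 0 at this split (-0.20 and -0.58).

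**Figure D2:**
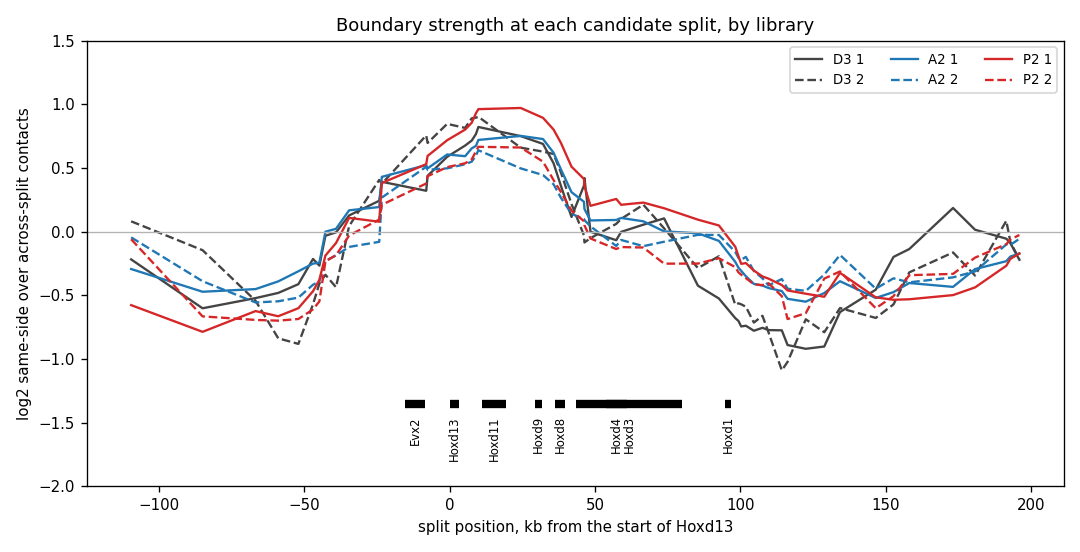
Boundary strength (log2 ratio of same-side to across-split contacts) at 53 candidate splits, plotted by distance in kb from the start of Hoxd13, with 1 line per library and black bars for genes. All 6 lines have their maximum, 0.64 to 0.97, at 9.88 or 24.5 kb, and are below 0 at -52.0 and at 116.2 kb.

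On average over distance classes, all 3 parts of the Hoxd genes leaned less to the 3′ flank in limb than in D3 cells. The preference of a group of genes is the log2 ratio of its contacts with the 5′ flank to those with the 3′ flank, averaged over 20-kb distance classes from 40 to 240 kb, so that a value of 0 means equal contact at equal distance. For Hoxd13 to Hoxd11, genes of the distal limb and digits, it was -0.72 and -1.14 in D3 replicates 1 and 2, 0.10 and 0.00 in A2 and 0.59 and 0.32 in P2. On this average, D3 cells leaned to the 3′ flank, limb cells were balanced or leaned to the 5′ flank, and no limb library reached the D3 values. The difference was 1.19 ± 0.37 (SE), a 2.28-fold shift of the ratio (limma, adjusted p = 0.0348). Single classes held as few as 2 pairs with the 5′ flank. D3 replicates 1 and 2 differed in sign at 140 to 160 kb (0.80 and -2.50) and at 160 to 180 kb (0.36 and -0.42).

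Hoxd9 and Hoxd8 preferred the 3′ flank in all 6 libraries, less so in limb cells. At 40 to 60 kb, their single pair with the 5′ flank had no read in either D3 library. That class was left out of the D3 averages but kept in the limb averages. The preference of both genes was -1.86 and -2.02 in D3, -1.14 and -1.26 in A2 and -0.85 and -1.09 in P2, without overlap. It rose by 0.85 ± 0.27 (SE, adjusted p = 0.0348, limma). This call remained in 1 of 6 fits that left out 1 library (adjusted p up to 0.122). Hoxd4 to Hoxd1, expressed early and in more anterior parts of the embryo, also kept their 3′ preference, with -3.01 and -2.82 in D3, -1.68 and -1.400 in A2 and -1.98 and -1.87 in P2. The difference was 1.18 ± 0.39 (SE, adjusted p = 0.0348, limma), and again no libraries of both groups overlapped.

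The order along the cluster was thus the same in limb and D3 cells, from the least 3′ preference at Hoxd13 to Hoxd11 to the strongest at Hoxd4 to Hoxd1. The values of all 3 parts lay higher in limb cells. For single genes over all distances, the log2 ratio of 5′ to 3′ contacts overlapped for Hoxd13 (0.68 and 0.20 in D3, 0.33 to 1.01 in limb cells). It also overlapped for Hoxd9 (-2.02 and -1.72 in D3, -2.01 to -1.50 in limb cells). All limb ratios exceeded both D3 ratios for Hoxd12, Hoxd11, Hoxd8, Hoxd4, Hoxd3 and, by little, Hoxd1. Of the distance classes that could be compared in all 6 libraries, all limb values exceeded both D3 values in 4 of 8 for Hoxd13 to Hoxd11, 5 of 9 for Hoxd9 and Hoxd8 and 2 of 8 for Hoxd4 to Hoxd1, and in the others the groups overlapped. The calls were sensitive. Leaving out any 1 library other than P2 replicate 2 raised the adjusted p for Hoxd13 to Hoxd11 above 0.05 (up to 0.140) at differences of 0.98 to 1.397, and with primers scaled to equal means the differences were 0.90, 0.52 and 0.88 for the 3 parts with adjusted p of at least 0.509. With medians of nonzero pairs the preference of Hoxd4 to Hoxd1 reversed to -0.081 (adjusted p = 0.848). In the other 12 ES libraries the preference of Hoxd13 to Hoxd11 was below all limb values in 11 (-0.91 to -0.082) and above them in 1, an Eed mutant library (1.62). The other parts went the other way. Of the same 12 libraries, 9 were above all limb values for Hoxd9 and Hoxd8 and 2 below. For Hoxd4 to Hoxd1, 8 were above and 1 below.

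**Figure D3:**
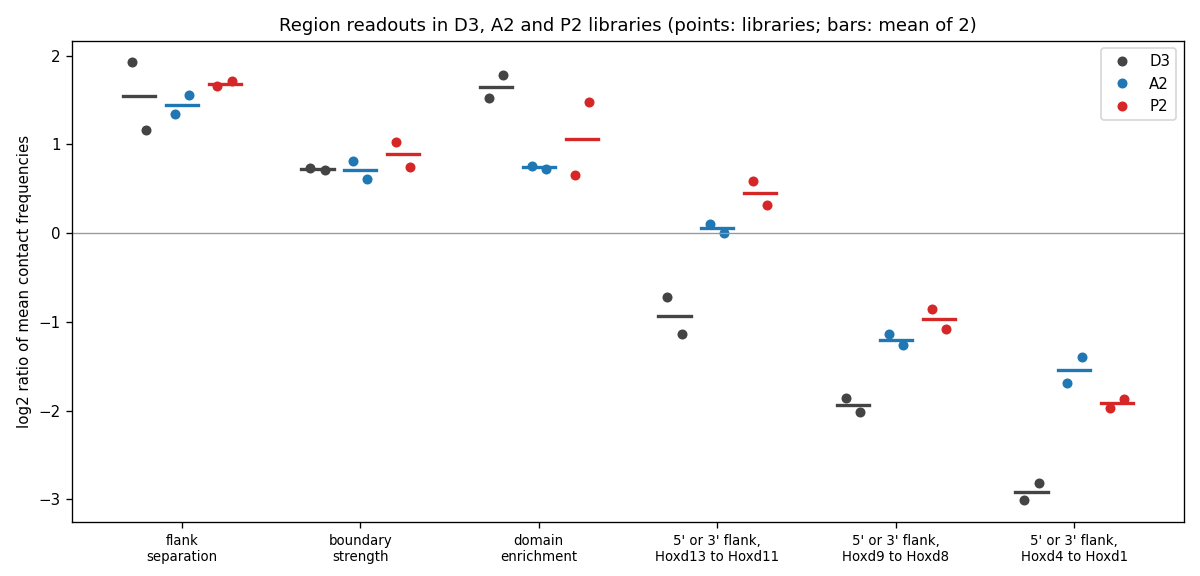
Region readouts as log2 ratios in each library (points) with the mean of the 2 libraries of a group (bars) for D3, A2 and P2 cells. Flank separation and boundary strength overlap between groups, while the 3 ratios of contacts with the 5′ flank over the 3′ flank lie lower in both D3 libraries than in each limb library.

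The separate contacts behind these ratios were read as means over all distances. Hoxd13 to Hoxd11 contacted the 5′ flank with mean frequencies of 0.186 and 0.175 in D3, 0.252 and 0.297 in A2 and 0.280 and 0.334 in P2 (log2 difference 0.62, adjusted p = 0.0348, limma). Their contacts with the 3′ flank were 0.189 and 0.237, 0.224 and 0.272, and 0.200 and 0.257 in the same order, and the groups overlapped (0.15, adjusted p = 0.505). Leaving out any 1 of the 6 libraries ended the call at the 5′ side (0.56 to 0.68, adjusted p 0.0556 to 0.122). The call also ended without the pair of mHoxD_85 and mHoxD_163 (0.52, adjusted p = 0.0646, limma). It also depended on where Evx2 was counted: with the Evx2 fragment in the 5′ flank the difference was -0.14.

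Hoxd4 to Hoxd1 contacted the 3′ flank with 0.890 and 0.701 in D3, 0.411 and 0.372 in A2 and 0.402 and 0.376 in P2. All limb values were below both D3 values, with a log2 difference of -0.98 (95% interval -1.45 to -0.52, adjusted p = 0.0090, limma). Without the pair of mHoxD_85 and mHoxD_163 it was -0.43 (adjusted p = 0.036), and with primers scaled to equal means -0.049 (adjusted p = 0.666). Their contacts with the 5′ flank were low in all libraries, from 0.0676 to 0.118, and overlapped (0.23, adjusted p = 0.332). With the 3′ flank, all 12 other ES libraries were also above all limb values.

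**Figure D4:**
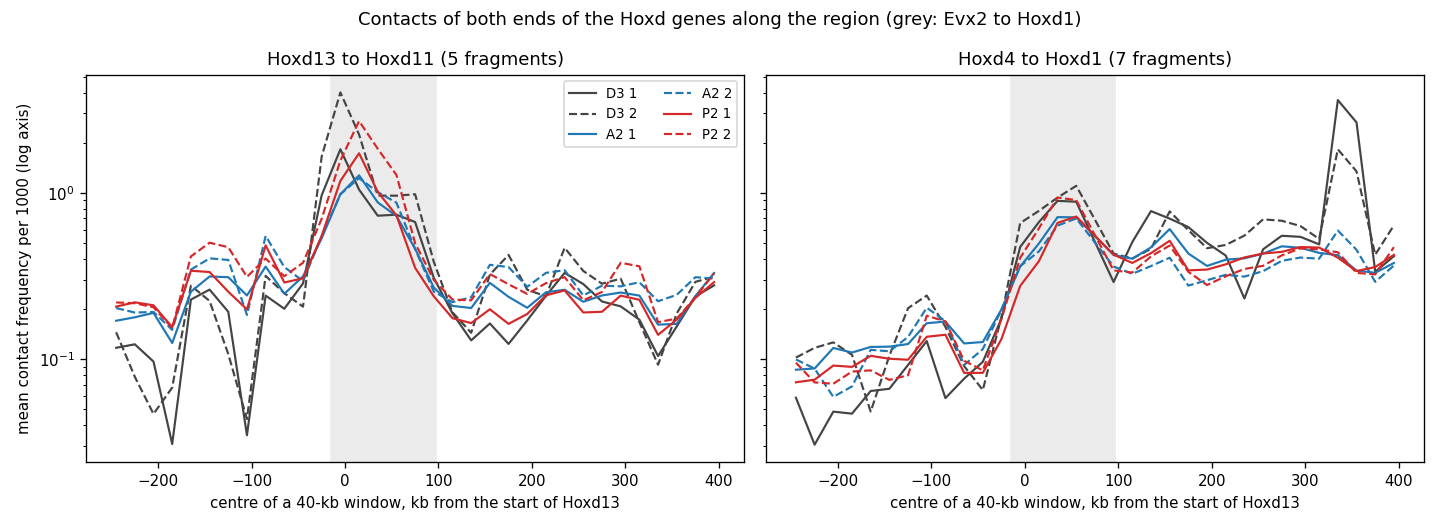
Mean contact frequency per 1000 (log axis) of Hoxd13 to Hoxd11 (left) and Hoxd4 to Hoxd1 (right) with 40-kb windows along the region, by the distance of the window centre from the start of Hoxd13, 1 line per library. On the left, the D3 lines drop lowest in the 5′ flank. On the right, contacts are higher on the 3′ side in all 6 libraries and both D3 lines peak in the windows around 340 kb that hold the pair of mHoxD_85 and mHoxD_163 (108.6 and 49.7).

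Inside the cluster, contacts at matched distance were denser than in the flanks in both kinds of cells, and those between its ends were lower in limb cells. Domain enrichment is the log2 ratio of pairs inside the cluster to pairs inside a flank in 5 distance classes from 10 to 110 kb. It was 1.52 and 1.78 in D3, 0.76 and 0.72 in A2 and 0.66 and 1.47 in P2, with P2 replicate 2 apart from the other limb libraries. All limb values lay below both D3 values, but the difference was -0.75 ± 0.34 (SE) with an adjusted p of 0.0876 by limma, above 0.05. It was -0.95 without P2 replicate 2 (adjusted p = 0.0537), and -0.75 with an adjusted p of 0.0088 when the spread was taken from the 6 libraries alone. Over 22 settings the difference was at its smallest -0.016, and the highest adjusted p was 0.879 (limma). Undifferentiated OS25 cells had 2.59 and 3.72. Of the 12 other ES libraries of the series, 10 lay above all limb values and 0 below them.

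The groups parted at the longer distances. At 10 to 20 kb the enrichment was 1.76 and 1.79 in D3 and from 0.95 to 2.12 in limb cells, and the groups overlapped there as well as at 20 to 40 and 40 to 60 kb. At 60 to 80 kb it was 2.14 and 1.56 in D3, 0.42 and 0.40 in A2 and 0.071 and 0.94 in P2. At 80 to 110 kb it was 1.33 and 1.92 in D3, 0.50 and 0.49 in A2 and 0.091 and 1.00 in P2. Both of these classes rest on few cluster pairs (11 and 10) and were not tested singly. At 60 to 80 kb their mean frequency was 1.13 and 0.704 in D3 and 0.341 to 0.508 in limb cells, while that of flank pairs was 0.256 and 0.238 in D3 and 0.265 to 0.325 in limb cells.

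**Figure D5:**
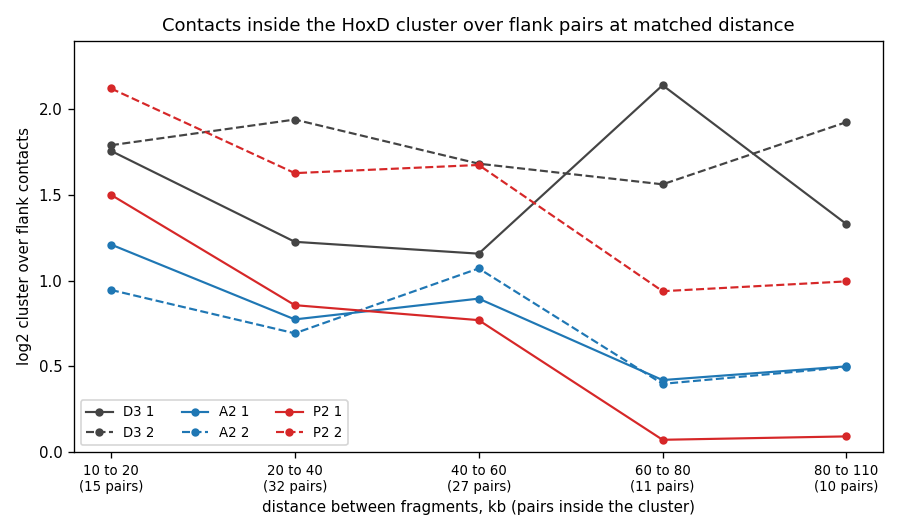
Log2 ratio of contacts inside the cluster to contacts inside the flanks in 5 distance classes, 1 line per library, with the number of cluster pairs in each class. D3 lines stay between 1.16 and 2.14, and the 4 limb lines are at 1.00 or lower from 60 kb on.

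Pairs between both ends of the cluster lie partly at these distances and partly at 40 to 60 kb, where the groups overlapped. The classes from 60 kb on also hold pairs of the Evx2 fragment. Pairs of Hoxd13 to Hoxd11 with Hoxd4 to Hoxd1 had mean frequencies of 0.651 and 0.934 in D3, 0.426 and 0.451 in A2 and 0.351 and 0.489 in P2. Each limb library was below both D3 replicates, and also below all 12 other ES libraries. The log2 difference from D3 was -0.84 ± 0.31 (SE, adjusted p = 0.03998, limma), or -0.95 without the highest fragment pair (adjusted p = 0.036) and -0.061 after primer scaling. Leaving out any 1 library other than P2 replicate 2 ended this call, with differences down to -0.59 (adjusted p = 0.278). Averaged over all 95 pairs inside the cluster, frequencies were 0.996 and 1.32 in D3, 0.747 and 0.753 in A2 and 0.764 and 1.23 in P2, which overlapped (-0.42, adjusted p = 0.214, limma). Without the highest fragment pair the difference was -0.53 (adjusted p = 0.0935, limma), and at its smallest over 21 settings it was -0.088. On the deposited scale, without rescaling to shared pairs, this last difference was -0.93 (adjusted p = 0.012, limma). On that scale limb values of shared pairs are lowered by the larger primer design. Pairs outside the shared design held 34.5% to 37.9% of the signal in limb libraries and 1.34% and 1.46% in D3.

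Of the 18 region readouts, 6 were called higher (33.3%) and 2 lower (11.1%) in limb cells by limma. All limb values lay above both D3 values in 8 readouts (44.4%) and below them in 5 (27.8%). Besides those described, contacts inside the 5′ flank were higher, with 0.197 and 0.230 in D3, 0.309 and 0.308 in A2 and 0.321 and 0.239 in P2. The highest D3 value was close to that of P2 replicate 2, and the log2 difference was 0.42 (adjusted p = 0.0348). Contacts between the flanks rose by 0.39 (adjusted p = 0.0348), while those inside the 3′ flank differed by 0.13 (adjusted p = 0.436). These shares are relative to each library's sum: without the pair of mHoxD_85 and mHoxD_163 the differences inside the 5′ flank and between the flanks were 0.32 and 0.30 (both with an adjusted p of 0.0814). On the deposited scale, where signal outside the shared design lowers limb values, these differences were -0.068 and -0.023. On ratios, which do not depend on scaling, long (200 to 400 kb) over short (20 to 50 kb) contacts differed by -0.18 (adjusted p = 0.436), and without that pair by 0.19 (adjusted p = 0.289).

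The A2 and P2 lines were also set against D3 separately, and these comparisons share the D3 libraries. Of the 18 readouts, limma called 0 higher and 1 lower (5.56%) in A2 and 3 higher (16.7%) and 1 lower (5.56%) in P2. The preference of Hoxd13 to Hoxd11 differed by 0.99 in A2 (adjusted p = 0.078) and by 1.39 in P2 (adjusted p = 0.047), that of Hoxd4 to Hoxd1 by 1.37 (adjusted p = 0.056) and 0.99 (adjusted p = 0.145), and contacts of Hoxd4 to Hoxd1 with the 3′ flank by -0.98 (adjusted p = 0.029) and -0.99 (adjusted p = 0.028). Between P2 and A2, limma called 0 of the 18 readouts, with 0 at an unadjusted p under 0.05. The difference in the preference of Hoxd13 to Hoxd11 was 0.40 (95% interval -0.53 to 1.32), which spans no change as well as a shift as large as that from D3.

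Of the 33 combinations of a gene with the 5′ flank, the cluster or the 3′ flank, 6 were called higher (18.2%) and 5 lower (15.2%) in limb cells. The groups did not overlap in 10 that were higher (30.3%) and 8 that were lower (24.2%) in limb cells. Against D3 separately, 1 was called higher (3.03%) and 5 lower (15.2%) in A2, and 4 higher (12.1%) and 4 lower (12.1%) in P2. The largest change was in the contacts of the single fragment of Evx2 (mHoxD_67, chr2:74483052-74498311), a homeobox gene next to Hoxd13 that shares its limb enhancers. Its frequency with the cluster was 2.76 and 3.39 in D3, 0.579 and 0.661 in A2 and 0.539 and 0.846 in P2, a log2 difference of -2.21 ± 0.30 (SE, adjusted p = 4.40e-05, limma). The limb values were all far below D3. With the 5′ flank the difference was -1.16 and with the 3′ flank -1.01, so the fragment was lower with all 3 partner regions. These 3 calls stayed past the threshold in each fit that left out 1 library.

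The fragment of Hoxd9 (mHoxD_78, chr2:74537329-74538484) showed the opposite. Its frequency with the 3′ flank was 0.155 and 0.152 in D3, 0.304 and 0.294 in A2 and 0.395 and 0.535 in P2 (log2 difference 1.18 ± 0.22 SE, adjusted p = 0.00090, limma). It was also higher with the 5′ flank (1.12, adjusted p = 0.0055) and with the cluster (0.82, adjusted p = 0.0395). With the cluster it had 0.522 and 0.767 in D3, 0.768 and 0.814 in A2 and 1.12 and 2.33 in P2, so that the lowest limb value was next to the higher D3 value. That call remained in 2 of 6 fits that left out 1 library (0.55 without D3 replicate 1 and 0.56 without P2 replicate 2, adjusted p up to 0.333) and was lost without the pair of mHoxD_85 and mHoxD_163 (0.71, adjusted p = 0.0738). The ends of both fragments, next to their EcoRI sites in capitals, lie at chr2:74498285-74498314 and chr2:74538458-74538487 (mm9, plus strand), in no annotated exon.
End of the Evx2 fragment: aatgagtattttatttaacaaataGAATTC
End of the Hoxd9 fragment: ctatcctgtagccagggccacaatGAATTC

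The other called genes changed with 1 region each. Contacts with the 5′ flank were higher for Hoxd12 (0.83), Hoxd8 (0.64) and Lnp, a gene within that flank (0.57), with adjusted p of 0.0299, 0.0358 and 0.0395. Each of these calls remained in 1 of 6 fits that left out 1 library (adjusted p up to 0.177, 0.278 and 0.327), and none without the pair of mHoxD_85 and mHoxD_163. Contacts with the 3′ flank were lower for Hoxd4 (-1.42) and Hoxd3 (-0.76), which both include mHoxD_85. Without its pair with mHoxD_163 neither was called: Hoxd4 with the 3′ flank had 0.414 and 0.435 in D3 and 0.327 to 0.378 in limb cells (-0.22, adjusted p = 0.378, limma), and the difference for Hoxd3 was -0.28 (adjusted p = 0.256). Hoxd13, Hoxd11, Hoxd1 and Mtx2, the first gene on the 3′ side, were called with none of the 3 regions. Hoxd13 with the 5′ flank had 0.472 and 0.331 in D3, 0.420 and 0.503 in A2 and 0.572 and 0.684 in P2, which overlapped (0.42, adjusted p = 0.309). Mtx2 with the 3′ flank had 0.296 and 0.304 in D3 and 0.256 to 0.293 in limb cells (-0.12, adjusted p = 0.666).

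A change with all 3 partner regions is a change in the total of a fragment. Of the 131 shared fragments, the mean frequency over all partners was higher in all 4 limb libraries than in both D3 libraries for 56 (42.7%) and lower for 19 (14.5%), and the log2 ratio of limb to D3 ran from -2.03 (mHoxD_85) to 1.98 (mHoxD_101, in the 3′ flank). Without its pair with mHoxD_163, the ratio of mHoxD_85 was -0.16 and the groups overlapped, the lowest ratio was that of the Evx2 fragment (-1.69), and 43 fragments were higher and 22 lower. With that pair included, 23 of the 40 fragments of the 5′ flank were higher and 2 lower, and of the 22 in the cluster, 6 were higher and 6 lower. When each primer was scaled to the same mean within a library, which removes such totals by construction, limma called 0 of 33 gene combinations, 0 of 18 readouts and 0 of 580 bin pairs. Whether the totals come from the primers or from the chromatin was not tested.

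Across the region, 578 pairs of 20-kb bins had a mean over the series above 0.02 and were tested. Limma called 3 higher (0.519%) and 1 lower (0.173%) in limb than in D3 cells, against 51 and 11 at an unadjusted p under 0.05. In A2 alone 2 were called higher (0.346%) and 0 lower (37 and 10 unadjusted), and in P2 alone 0 in either direction (34 and 8 unadjusted). Without overlap between the groups, limb cells were higher in 161 (27.9%) and lower in 45 (7.79%). Bin pairs within the cluster went the other way, with 1 of 12 higher and 5 of 12 lower and a median log2 difference of -0.44, against 0.36 over all tested bin pairs. Pairs between the flanks had a median of 0.68 (63 of 179 higher, 5 lower).

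Of the called bin pairs, the lower one (chr2:74541352-74561351 with chr2:74841352-74861351) holds mHoxD_85 and mHoxD_163, and was 6.30 and 3.11 in D3 and 0.457 to 0.873 in limb cells. It was no longer called without that pair. One of the higher ones lies within 74761352 to 74781351 in the 3′ flank and is a single fragment pair, with 0.116 and 0.0701 in D3, 1.17 and 1.89 in A2 and 0.438 and 1.25 in P2 (log2 difference 3.27, adjusted p = 0.0333, limma). The others join the flanks 380 kb apart, from 74261352 to 74281351 with 74641352 to 74661351, and from 74401352 to 74421351, in Lnp, with 74781352 to 74801351. Both had no read in either D3 replicate and 34 to 258 reads in each limb library, at least 45.4-fold and 27.03-fold higher against a floor of 3 reads per library. Floors of this kind cover counting error only. None of these 4 bin pairs stayed past the threshold in any of the 6 fits that left out 1 library (adjusted p of at least 0.0573).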

How the data were processed

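5C libraries of the HoxD region were read from fixed, EcoRI-digested chromatin by Ion Torrent sequencing. The authors processed the reads with a 5C pipeline on Galaxy and deposited 1 matrix per library, whose signal is the reads of a fragment pair divided by all reads of the run, times 1000. The aligner and its version are not given in the sources used here. Fragment coordinates are mm9. Reads were recovered from the step of the signal in each library and served for depth, thinning and floors (3 reads).

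From these matrices, pairs of the 131 shared fragments at least 10 kb apart were scaled to a sum of 1000. Means were taken over region pairs, genes and 20-kb bins (bins with a mean above 0.02). Log2 of these means was taken after adding 0.02, so that changes of low means are understated. Nothing was added in flank separation, boundary strength, domain enrichment, preference or long over short contacts. In these ratios low values can weigh strongly, and a distance class with a mean of 0 was left out for that library. Limma 3.58.1 in R 4.3.3 was fitted to all 18 libraries in their 9 groups, which share 1 estimate of the spread, with the mean of A2 and P2 against D3 as the contrast. Benjamini-Hochberg adjustment at 0.05 ran over 18 readouts, 33 gene combinations or 578 bin pairs, all of which overlap in their fragments. The fits were tested on simulated data. Named were all genes of the region and up to 8 called bin pairs in each direction whose groups did not overlap. Gene models were from a mouse annotation of the same build. Members, lists and tests were chosen with earlier results of these data known. Alternatives covered scaling, distances, pseudocount, primer scaling, thinning, the libraries in the fit, the cluster's edge, bin size and a replicate block. Fragments present in the limb design alone were left out.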

Additional observations from a re-analysis of the deposited data

Results flagged for a closer look

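The limb libraries held signal that no comparison above uses. Fragment pairs outside the shared design, which the larger primer design measured in limb cells, carried 37.6% and 37.2% of the signal of A2 replicates 1 and 2 and 37.9% and 34.5% of that of P2 replicates 1 and 2, against 1.34% and 1.46% in D3 and at most 3.60% in the other ES libraries, whose design had 2 fragments outside the shared set. These pairs have no counterpart in D3 cells.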

How the results depend on the processing

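The numbers of libraries (2 and 4) and the empty pairs of D3 cells limit precision, and the cause of the changes below was not tested. Flank separation reversed to -0.17 with primers scaled to equal means, to -0.18 at 120 to 200 kb and to -0.051 at 100 to 300 kb, and ran from -0.36 to 0.41 when 1 library was left out. Over all 24 settings it reached 0.94, and the lowest adjusted p was 0.119 (limma). Boundary strength reversed to -0.19 with primer scaling and to -0.022 at a split between Hoxd8 and Hoxd4 (0.0098 to 0.15 with 1 library left out), and boundary position to -3.63 kb with primer scaling and to -10.4 kb with medians of nonzero pairs (4.86 to 9.71 kb). Over all 23 settings boundary strength reached 0.495, and its lowest adjusted p was 0.0674 (limma). Domain enrichment passed the threshold with the 6 libraries alone (-0.75, and -0.95 to -0.55 with 1 library left out), and contacts inside the cluster did so on the deposited scale (-0.93, and -0.62 to -0.22). Over all their settings, these 2 differences were at their smallest -0.016 and -0.088. The preference of Hoxd13 to Hoxd11 lost its call with primer scaling (0.90), medians (0.80) and all but 1 of the left-out libraries (0.98 to 1.397). That of Hoxd4 to Hoxd1 lost it with primer scaling (0.88), with Evx2 in the 5′ flank (0.71) and with any library left out (1.09 to 1.28), and reversed with medians (-0.081). Primer scaling also reversed contacts inside the 5′ flank (-0.050), of Lnp with the 5′ flank (-0.043), of Evx2 with the 3′ flank (0.37) and of Hoxd9 with the cluster (-0.15). The deposited scale reversed contacts inside the 5′ flank (-0.068) and between the flanks (-0.023), and counting Evx2 in the 5′ flank reversed those of Hoxd13 to Hoxd11 with it (-0.14). Signal outside the shared design lowers limb values of all shared pairs on the deposited scale, also inside the cluster.

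Of 11 other region means, 5 were called, against 3 on the deposited scale, without the top 1% of pairs in the sum and with a pseudocount of 0.1, 2 when near pairs were included in the sum, 1 with Evx2 in the flank, 0 with primer scaling and 0 to 4 with 1 library left out. Of 33 gene combinations, 11 were called, against 7 without the top 1% of pairs in the sum, 0 with primer scaling and 4 to 10 with 1 library left out. Bin pairs called higher numbered 3, against 1 on the deposited scale, without the top 1% of pairs in the sum, from 20 kb on, with a pseudocount of 0.1 and in 24-kb bins, 0 with primer scaling and in 40-kb bins, 23 with the 6 libraries alone, 8 with limb libraries as 1 group and 0 to 1 with 1 library left out. Bin pairs called lower numbered 1, against 3 on the deposited scale, with a pseudocount of 0.1, with the 6 libraries alone and with limb libraries as 1 group, 2 in 40-kb bins, and 0 with primer scaling or any library left out. In alternatives chosen after seeing the data, capping frequencies at their 99th percentile gave 2 other means, 6 gene combinations and 0 lower bin pairs, and leaving out the highest fragment pair gave 2, 5, 0 higher and 0 lower. Libraries share only a replicate number (deviations correlated at 0.05 for D3 with A2, 0.12 for D3 with P2 and 0.17 for A2 with P2). With the replicate block the preference of Hoxd4 to Hoxd1 stayed at 1.18 with an adjusted p of 0.0645, 1 other mean was called, and 2 bin pairs were called lower. Count-based tests on the recovered reads were not run.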
